A study of Mus musculus with 6 samples.

Results

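The synucleins are a family of small, natively unfolded proteins that bind membranes and are best known from nerve terminals. Sncg encodes gamma-synuclein, which is abundant in peripheral neurons and in fat cells and is also made by some human breast and ovarian carcinomas. Sncb encodes beta-synuclein, a presynaptic protein of the brain. Family members are studied mostly for their contact with synaptic vesicles and with the machinery of membrane fusion.

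The family was taken as the rows of the authors' deposited comparison table whose gene symbol is Sncg or Sncb. Of 25697 rows, 2 carried Sncg and 0 carried Sncb, so Sncb was not analysed here and all values below are those of Sncg. Sncg was selected because its ratio was among the largest of this comparison. Its values are therefore given as a description, with no test.

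Ovaries of Swiss mice were taken on postnatal day 3 to 4 and kept in organ culture for 96 h. Culture medium of 3 samples contained 3-methylcholanthrene (3MC) at 5 µM, a dose that pilot work had set to cause overt toxicity. 3MC is a polycyclic hydrocarbon and a ligand of the aryl hydrocarbon receptor (AhR). The 3 control samples received the vehicle alone, dimethyl sulfoxide (DMSO) at 0.01%. The medium of both groups also contained 5% serum, basic FGF at 40 ng/ml, the cytokine LIF at 50 ng/ml and the KIT ligand SCF at 25 ng/ml. Whether samples of 1 group were separate cultures or animals is not stated, so the spread behind every p-value here is that of these 6 arrays and may be technical. Median scanner signal per array ran from 107.8 to 109.1 with DMSO and from 98.1 to 124.5 with 3MC, the highest being 3MC replicate 1.

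Sncg lies on chromosome 14 in the authors' table. Its 2 rows name the same transcript, ILMN_209715, under successive versions of 1 RefSeq accession, and each was linked to 1 probe by its ratio. The row with the larger ratio belongs to ILMN_2598478, called the first probe below, and the other to ILMN_2939277, called the second probe. The link of the first probe is far from any other, with the next probe 0.105 away on the log2 scale against a difference of 8.56e-07 for the partner. For the second probe the next one lay 0.000282 away, against 1.97e-06 for the partner. Where either probe lies along the transcript was not analysed here.

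The stretch just before the start of Sncg is shown because 3MC acts on the AhR, whose complex with ARNT binds the core motif GCGTG. The 250 bases upstream of the RefSeq start are printed 5′ to 3′ on the minus strand, from GRCm38.p6, chr14:34374670-34374919, with the letters of the core motif in capitals.

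Sncg upstream: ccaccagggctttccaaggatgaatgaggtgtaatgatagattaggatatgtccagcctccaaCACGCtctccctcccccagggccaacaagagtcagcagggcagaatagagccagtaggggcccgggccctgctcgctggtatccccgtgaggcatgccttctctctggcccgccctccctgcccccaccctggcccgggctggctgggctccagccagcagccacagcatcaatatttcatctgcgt

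The window held 1 match to GCGTG, read on the opposite strand, with its first printed letter 187 bases before the start. A match on either strand occurs in 28.2% of the 32851 windows of the same length in the RefSeq table. The antioxidant response element core TGACNNNGC and the TATA box letters TATAAA, searched on both strands, had 0 matches. They occur in 10.2% and 12.4% of all windows. These counts describe letters only and say nothing of binding.

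Sncg signal was low in the vehicle ovaries and higher in all 3 samples with 3MC, several-fold at the first probe and less at the second. At the first probe the scanner read 117.9, 110.6 and 110.4 in DMSO replicates 1, 2 and 3. With 3MC it read 633.5, 433.4 and 385.1 in replicates 1, 2 and 3. The groups did not overlap, and replicate 1 was the highest in both. In the DMSO arrays this probe lay barely above the median probe of its array, at 1.024 to 1.081 times that median. In the 3MC arrays it stood at 3.874 to 5.088 times the median.

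The second probe was dimmer throughout. It read 96.3, 92.3 and 93.7 with DMSO and 182.4, 131.6 and 108.5 with 3MC, in replicate order. All DMSO arrays lay below the median probe, at 0.855 to 0.883 times it, and all 3MC arrays lay above, at 1.092 to 1.465 times. The groups did not overlap, but 3MC replicate 3 came close to the control range. The files used here hold no detection call, so it is unknown whether either probe was above background in the DMSO ovaries.

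**Figure D1:**
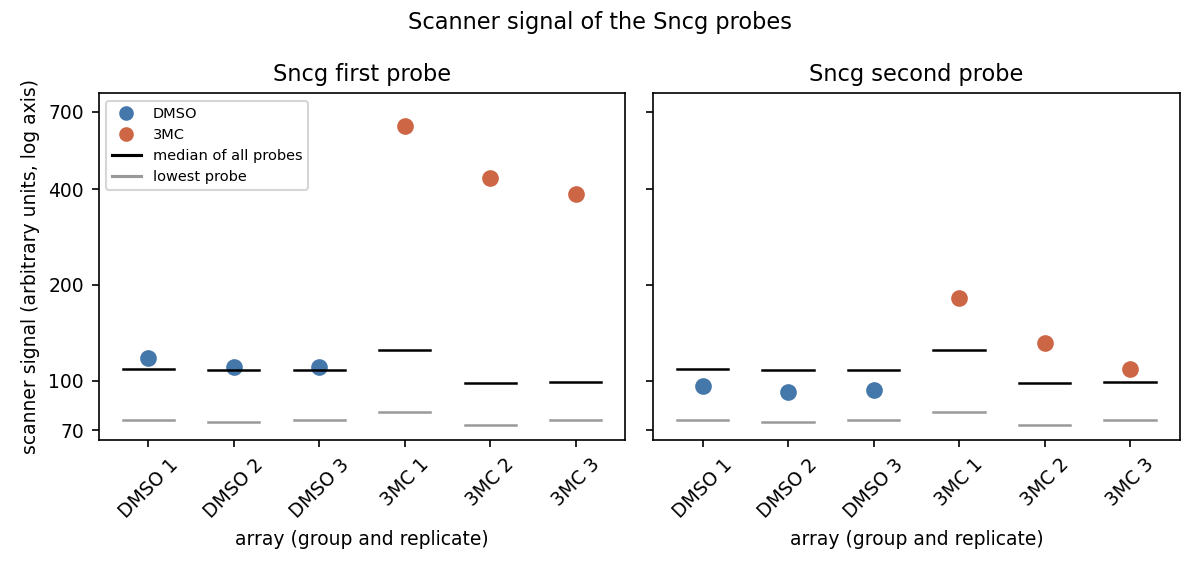
Scanner signal of both Sncg probes on each of the 6 arrays (log axis, arbitrary units), with points for DMSO (blue) and 3MC (orange), a black line at the median of all probes of that array and a grey line at its lowest probe. The first probe sits at the array median in all 3 DMSO arrays and reaches 385.1 to 633.5 with 3MC, while the second stays under the median with DMSO and reaches 108.5 to 182.4.

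The 3MC arrays differed more among themselves in raw signal than the DMSO arrays did. At the first probe the scanner mean was 113.0 ± 4.3 (SD, n = 3) with DMSO and 484.0 ± 131.7 (SD, n = 3) with 3MC. At the second it was 94.1 ± 2.0 (SD, n = 3) and 140.8 ± 37.8 (SD, n = 3). The array with the highest Sncg signal, 3MC replicate 1, was also the one with the highest median signal.

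Normalization removed most of that spread at the first probe. After normexp background correction and quantile normalization its log2 signals were 6.43, 6.34 and 6.34 with DMSO, in replicate order, and 8.76, 8.94 and 8.93 with 3MC. Replicate 1, brightest on the scanner, became the lowest of the 3MC arrays. The lowest 3MC array stood 2.33 above the highest DMSO array on the log2 scale. The group means were 6.37 ± 0.053 (SD, n = 3) and 8.88 ± 0.10 (SD, n = 3), a difference of 2.51 ± 0.086 (limma standard error), or 5.69-fold.

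The second probe had normalized log2 signals of 6.06, 5.99 and 6.01 with DMSO, in replicate order, and of 6.87, 6.92 and 6.53 with 3MC. Here replicate 3 remained the lowest of the 3MC arrays, 0.47 above the highest DMSO array. The means were 6.02 ± 0.034 (SD, n = 3) and 6.77 ± 0.214 (SD, n = 3), a difference of 0.75 ± 0.094 (limma standard error), or 1.69-fold. Both probes had all 3MC values above all DMSO values. So had 20.9% of the 12848 probes kept, and since Sncg was selected by this contrast nothing is read from that count. The second probe lay under the array median in every DMSO array, so it was among the kept probes through its 3MC signal. In bulk tissue, more cells that hold a transcript and more transcript per cell cannot be told apart.

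The size of the Sncg difference depended on how the background of the arrays was treated, while its direction did not in any setting tried. At the first probe it was 2.09 on the log2 scale (4.27-fold) in the authors' normalized values and 2.16 (4.47-fold) with quantile normalization and no background correction. With a smaller normexp offset of 16, chosen after the data were seen, it was 3.17 (8.98-fold). The second probe went from 0.52 (1.43-fold) in the authors' values to 1.28 (2.43-fold) with that offset. At the first probe this movement was in the DMSO arrays. Its DMSO mean was 6.68 in the authors' values and 5.60 with the offset of 16, while its 3MC mean was 8.77 in both. At the second probe both means moved, from 6.45 to 4.94 with DMSO and from 6.96 to 6.22 with 3MC. Exchanging quantile normalization for cyclic loess or median centring gave 2.52 and 2.44 at the first probe.

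**Figure D2:**
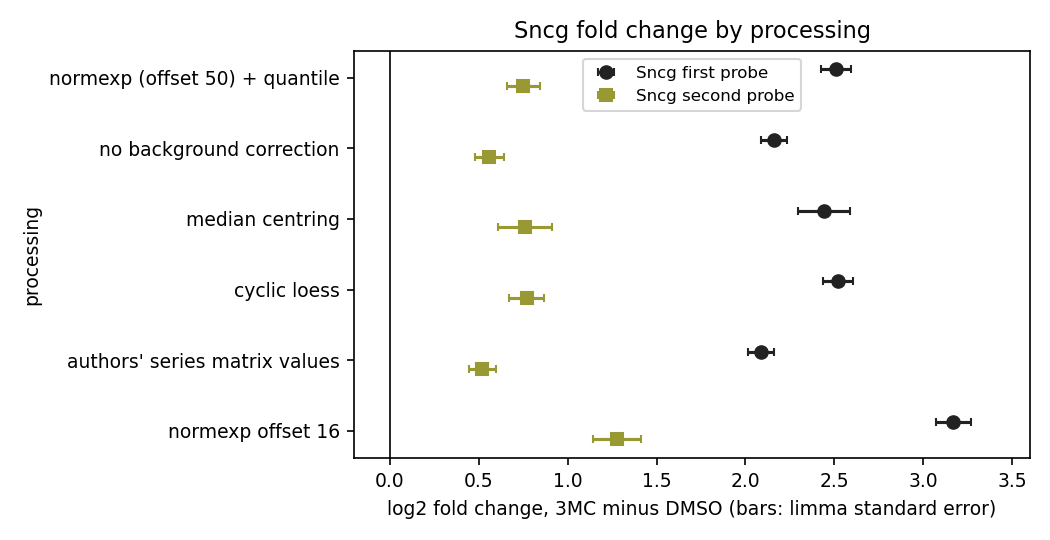
Log2 fold change of 3MC minus DMSO at both Sncg probes (horizontal axis) under 6 ways of processing the same 6 arrays (vertical axis), with bars of 1 limma standard error. The first probe lies between 2.09 and 3.17 and the second between 0.52 and 1.28, with the highest value of each at the normexp offset of 16.

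In the authors' deposited table the first row of Sncg had a ratio of 4.272 and ranked 6 of 25697 rows in order of rise. The 3 rows of Cdkn1a, the gene of the cell cycle inhibitor p21, and single rows of Phlda3, an inhibitor of AKT signalling, and Ephx1, the microsomal epoxide hydrolase, stood above it. The nearest row above, Ephx1, had a ratio of 4.879, and the next below, the adenylate kinase gene Ak1, had 3.973. The second row of Sncg, with a ratio of 1.432 in the authors' deposited table, ranked 357. It missed the 1.5-fold level that 1.12% of all rows reached upward and 0.981% downward. The authors' unadjusted p-values for both rows belong to the contrast that selected the gene and are not used.

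**Figure D3:**
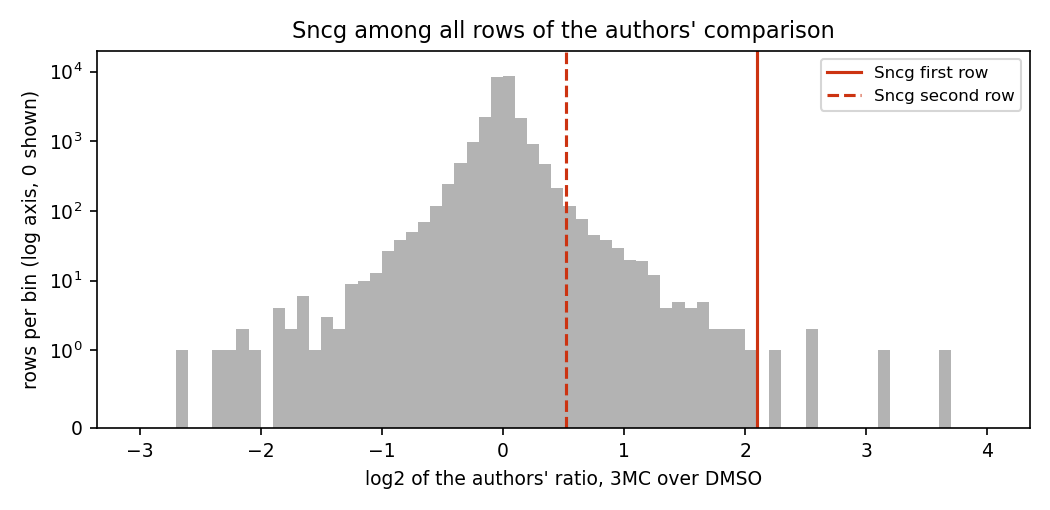
Number of rows of the authors' comparison (vertical, log axis with 0 shown) by log2 ratio of 3MC over DMSO in bins of 0.1 (horizontal), with red lines at the Sncg rows. The first row (solid, 2.09) lies where bins hold single rows, and the second (dashed, 0.52) on the upper shoulder of the distribution.

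Both Sncg probes moved the same way, but by very different amounts. Their log2 ratios in the authors' deposited table lay 1.58 apart. Among 4740 transcripts with 2 or more rows the median gap between the highest and the lowest row was 0.11, and 3 transcripts had a gap as wide as that of Sncg or wider. These included Sncg itself. The other two were Slc25a3, the mitochondrial phosphate carrier, with rows from -0.43 to 1.68, and Hsd11b1, the enzyme that regenerates active glucocorticoid, with rows from -0.02 to 1.98. In both of those the lowest row was below 0, whereas the lower Sncg row was at 0.52. Restricted to the 23 transcripts whose highest row had at least doubled, the median gap was 0.96. In the normalized scanner values the first probe exceeded the second by 1.75 in log2 fold change, and by 1.58 to 1.89 over the 6 ways of processing shown.

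**Figure D4:**
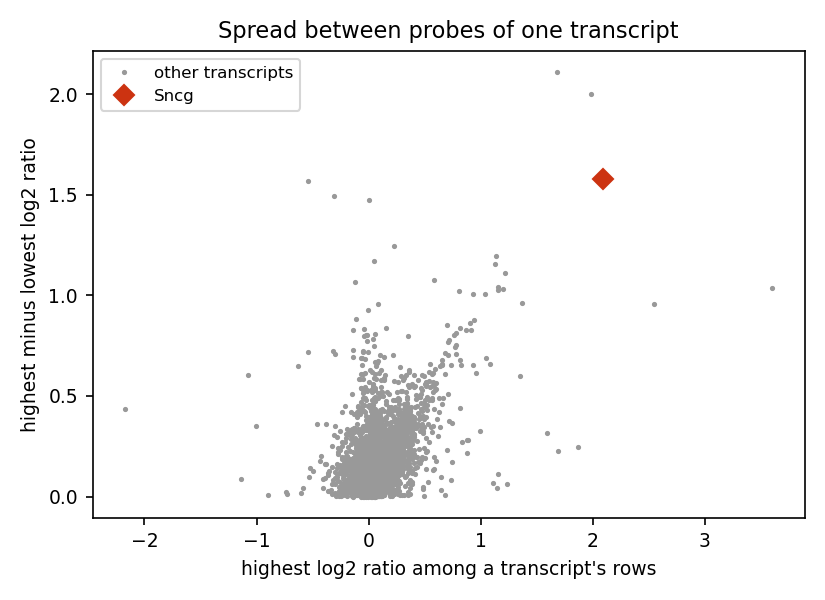
For each of 4740 transcripts with 2 or more rows in the authors' comparison, the highest log2 ratio among its rows (horizontal) against the gap between its highest and lowest row (vertical). Sncg (red diamond) combines a highest row of 2.09 with a gap of 1.58, which 2 other transcripts exceed.

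Many genes shared the pattern of Sncg over the 6 arrays. Among 343 joined probes whose log2 signal ranged over at least 1, the first Sncg probe correlated best with Arhgap24 (r = 0.9992), a GTPase-activating protein, and with a probe of Hsd11b1 (r = 0.9992). Next came Snai1 (r = 0.9988), a zinc finger repressor, the heparan sulfate sulfotransferase gene Hs3st1 (r = 0.9987) and Gdf15 (r = 0.9986), a stress-induced cytokine. These correlations rest on 6 arrays in 2 well-separated groups, and 165 of the 343 probes (48.1%) reached r = 0.95 or more. They are a description of probes that separate the groups cleanly. Log2 fold changes of these 5 probes ran from 1.09 to 2.03, between the 0.75 of the second Sncg probe and the 2.51 of the first. The 2 Sncg probes correlated with each other at r = 0.944. The second probe was best matched by Aldh1l2, Fam114a1, Atg3, Mff and Sectm1a, with r from 0.9858 to 0.9935.

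The protein-coding genes next to Sncg on chromosome 14 were read for their own differences. Of the 4 on each side in RefSeq order, 6 had rows in the authors' deposited table, and their ratios lay between 0.942 and 1.345. Only Mmrn2 and Bmpr1a were joined to a kept probe. Over all joined genes 85.5% passed, 42.5% of them all upward, so a rise in either says little about the region. Mmrn2, the nearest on one side, encodes multimerin 2 of the endothelial matrix. Its normalized log2 signals were 6.15, 6.06 and 6.03 with DMSO and 6.61, 6.68 and 6.42 with 3MC. It rose by 0.49 ± 0.089 (limma standard error, n = 3 per group). Its DMSO signals lay below those of the first Sncg probe, which was near the array median. Mmrn2 may thus have passed the filter on mean signal only through its 3MC arrays, and no test of it is given. As for Sncg, the size depended on the background step, at 0.33 in the authors' values and 0.86 with a normexp offset of 16. Bmpr1a, a receptor for bone morphogenetic proteins, lies beyond Mmrn2 and had ratios of 1.172 and 1.345 in the authors' deposited table. The row of lower ratio was joined, and its probe rose by 0.27 ± 0.088 (limma adjusted p = 0.0192). That call was lost with median centring (adjusted p = 0.60) and without DMSO replicate 1 (0.0918), 3MC replicate 1 (0.0721) or 3MC replicate 3 (0.0772). Fam25c, nearest on the other side, had a ratio of 1.015 in the authors' deposited table, and Glud1, the mitochondrial glutamate dehydrogenase, had ratios of 0.942 and 1.051.

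Genes whose products bind synucleins or are linked to inherited Parkinson's disease were read beside Sncg. Of 24 such genes 21 had rows in the authors' deposited table, and none reached 1.5-fold in either direction, against 1.4% of all genes upward and 1.28% downward. At those shares a count of 0 among 21 genes says little about the list. Their ratios ran from 0.752 to 1.37, the highest close to the 1.432 of the second Sncg row and below the 4.272 of the first, with a median log2 ratio of -0.109 against 0.001 over all 18033 genes. Of the 5 that could be joined to a kept probe, 2 rose, 2 fell and 1 did not pass. Over all 2332 joined genes 85.5% passed, 42.5% upward and 43.0% downward, since the link by ratio favours large differences, and over all kept probes 32.2% passed, 15.8% upward and 16.4% downward.

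The members of that list that passed moved by less than 1.5-fold. Hspa8, a constitutive chaperone that also uncoats clathrin vesicles, rose by 0.42 ± 0.092 (limma adjusted p = 0.000551). Its log2 signals were 11.93, 12.23 and 12.18 with DMSO and 12.65, 12.46 and 12.49 with 3MC. Uchl1, a deubiquitinase abundant in neurons and germ cells, fell by 0.39 ± 0.085 (adjusted p = 0.000422), from 11.54, 11.53 and 11.48 to 11.14, 11.05 and 11.18. Bub1b, a mitotic checkpoint kinase that binds gamma-synuclein in human cells, fell by 0.38 ± 0.087 (limma adjusted p = 0.000878). The kinase gene Lrrk2 rose by 0.37 ± 0.090 (limma adjusted p = 0.00159). With median centring only Uchl1 of these 5 genes passed in limma, while Hspa8 (adjusted p = 0.342) and Bub1b (adjusted p = 0.0858) were among those that did not.

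The vesicle proteins with which synucleins are studied were read in the same way. Of 21 synaptic vesicle and SNARE genes 20 had rows in the authors' deposited table, none at 1.5-fold or more. Over all genes 1.4% reached that level upward and 1.28% downward, so a count of 0 says little about the list. Ratios of the 20 genes ran from 0.831 to 1.379, with a median log2 ratio of 0.002. The highest was Vamp2, a SNARE of the vesicle membrane, and it was the only one joined to a kept probe. Vamp2 had log2 signals of 7.96, 8.17 and 7.90 with DMSO and 8.58, 8.62 and 8.37 with 3MC, and rose by 0.51 ± 0.092 (limma adjusted p = 4.18e-05). With median centring the difference was 0.40 (adjusted p = 0.189). Snap25 and Stx1a, its partners on the plasma membrane, had ratios of 1.01 and 1.209 in the authors' deposited table, and Th, the rate-limiting enzyme of catecholamine synthesis, had 0.831.

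Markers of the cells in which gamma-synuclein is abundant elsewhere were mostly near a ratio of 1, as were most of all rows. Of 12 adipocyte genes none reached 1.5-fold, and the median log2 ratio was -0.023 in the authors' deposited table. Over all genes 1.4% reached that level upward and 1.28% downward, so a count of 0 among 12 says little about the list. The adipocyte hormone genes Adipoq and Lep had ratios of 0.984 and 1.004, and the lipid droplet gene Plin1 had 0.964. Lpl, lipoprotein lipase, was the highest and the only one joined, and it rose by 0.52 ± 0.088 (limma adjusted p = 1.33e-05), with 0.39 (adjusted p = 0.0917) under median centring. Its summed level was 2314 to 2399 with DMSO and 3039 to 3599 with 3MC on the linear normalized scale.

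Of 11 neuronal genes with rows, 0 reached 1.5-fold upward or downward in the authors' ratios, against 1.4% and 1.28% of all genes. At those shares the count says little about the list. The median log2 ratio was 0.010. The pan-neuronal genes Tubb3, Stmn2 and Gap43 had ratios of 1.021, 0.989 and 0.96 in the authors' deposited table. Prph, an intermediate filament of peripheral neurons and the one neuronal gene joined, fell by 0.77 ± 0.090 (limma adjusted p = 1.49e-08), from 7.0, 7.23 and 7.11 to 6.19, 6.41 and 6.43. Its level summed to 128 to 151 with DMSO and 73 to 86 with 3MC. The size of the Prph fall depended on the background step. Its log2 fold change was -0.57 in the authors' values, a ratio of 0.675 that falls short of 1.5-fold, and -1.15 with a normexp offset of 16. Of 5 Schwann cell genes with rows none was joined. Egr2, a transcription factor of Schwann cells and of early responses, had a ratio of 2.331 in the authors' deposited table, and the other four had ratios between 0.963 and 1.029 there. Genes not joined have an unknown signal, so a ratio near 1 does not show that they were expressed and steady. The part of these cell types in the Sncg values was not tested.

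Defining markers of the ovary were present, several with bright signal. The oocyte genes Gdf9 and Zp3 had mean log2 signals of 12.75 and 12.30 with DMSO, and Amhr2, the granulosa cell receptor for anti-Müllerian hormone, had 12.11. These were chosen for their brightness after the values were seen. Of 8 joined oocyte genes 4 rose and 4 fell, against 42.5% upward and 43.0% downward over all joined genes, with a median log2 fold change of -0.03 and a summed level of 22292 to 23574 with DMSO and 23080 to 25225 with 3MC. With median centring 1 was higher and 3 were lower. Oosp1, which encodes an oocyte-secreted protein, rose by 1.01 ± 0.086 (limma adjusted p = 1.09e-11), and Figla, an oocyte transcription factor, fell by 0.50 ± 0.096 (adjusted p = 0.000107).

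The joined genes of the other ovarian cell types are few, so their lists are given over the authors' deposited table as well. Over all joined genes 85.5% passed, 42.5% upward and 43.0% downward, so calls of so few genes say little about a list. Of the granulosa cell list 10 genes had rows in that table, with ratios from 0.745 to 1.202 and a median log2 ratio of 0.065. None was at 1.5-fold, against 1.4% of all genes upward and 1.28% downward. The lowest of the granulosa cell list, Amhr2, was the only one joined and fell by 0.41 ± 0.086 (limma adjusted p = 0.000344). The 8 endothelial genes had ratios from 0.757 to 1.094 and a median log2 ratio of 0.012. The pair of them that was joined fell, and 1 was lower with median centring. The 9 genes of stroma and theca had a median log2 ratio of 0.228. Of the 3 joined 2 rose and 1 fell, and with median centring none was higher and 1 was lower. The 8 surface epithelium genes had a median log2 ratio of -0.092, and of the 5 joined 2 rose and 3 fell, with 1 higher and 3 lower with median centring. Among them Upk1b, a uroplakin, rose by 1.38 ± 0.095 (limma adjusted p = 2.95e-14), while its rows in the authors' deposited table disagreed, with ratios of 2.195 and 0.957. Lgr5, a receptor for R-spondins, fell by 1.01 ± 0.095 (adjusted p = 1.16e-10). Over all lists 12 joined genes rose and 28 fell, where 42.5% and 43.0% of all joined genes did. With median centring 2 rose and 25 fell. The leukocyte list, described next, held 14 of the falls in both settings.

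Most leukocyte markers moved against Sncg. All 14 joined members of 19 fell, against 43.0% downward over all joined genes, with a median log2 fold change of -1.55. Their summed level was 27123 to 28499 with DMSO and 9512 to 10276 with 3MC. The link by ratio favours large differences, so the whole list was read as well. Of the 19 members 14 were lower by 1.5-fold or more in the authors' ratios, each at its row of largest size. Read in that way, 1.28% of all genes were. The remaining members, Ptprc, Fcer1g, Itgam, H2-Aa and Cd3e, had ratios of 0.978 to 1.051 in the authors' deposited table and were not joined. Rows of some falling genes disagreed, from 0.361 to 1.002 for Lyz1 and from 0.438 to 0.919 for Adgre1. Those of H2-Ab1 ran from 0.311 to 0.473. Coro1a, a coronin of blood cells, had log2 signals of 8.99, 8.85 and 9.10 with DMSO and 6.46, 6.45 and 6.58 with 3MC, and fell by 2.48 ± 0.088 (limma adjusted p = 2.12e-22). Cd52, a surface antigen of lymphocytes and macrophages, fell by 2.09 ± 0.092 (adjusted p = 8.91e-20). The MHC class II gene H2-Ab1 fell by 1.97 ± 0.085 (adjusted p = 6.31e-20), and the complement gene C1qb fell by 1.86 ± 0.096 (adjusted p = 1.06e-17). Whether these falls bear on the Sncg values was not tested.

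**Figure D5:**
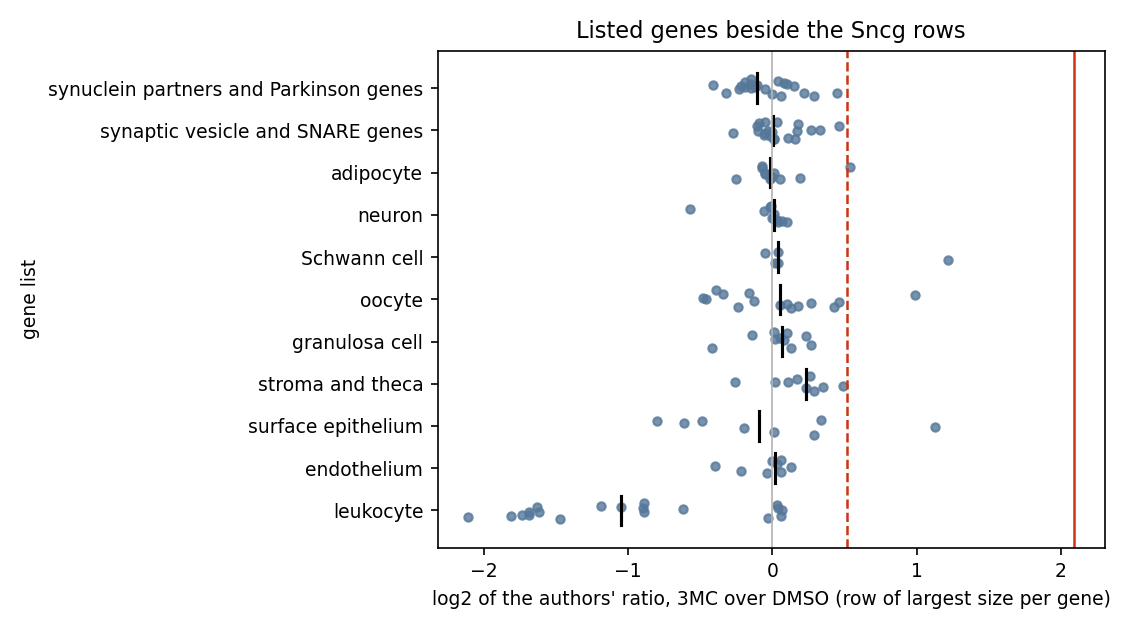
Log2 ratio of 3MC over DMSO in the authors' comparison (horizontal) for each gene of the 11 lists (vertical), each gene at its row of largest size, with a black bar at the list's median. Red lines mark the Sncg rows at 2.09 (solid) and 0.52 (dashed); none of the listed genes reaches the first, and the leukocyte list has its median at -1.047.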

How the data were processed

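Ovaries were profiled on 6 Illumina Mouse Ref-8 v2 BeadChips, grouped by the sample titles. The authors deposited scanner intensity for 25697 probes, without detection p-values or control probes, and normalized log2 values of the same probes. The submitters' processing notes name lumi, with no role or version. The authors' deposited comparison lists, per the file headers, the ratio of 3MC over DMSO, a fold change with a sign and an unadjusted p-value by row, from a model that no source used here gives.

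Rows carry gene symbols and value tables carry probe identifiers, with no shared column. A row was joined to a probe where the log2 ratio of the row and the group difference of the probe, in the authors' log2 values, were each other's only partner within 5e-05. This joined 2656 rows, and 512 of the 540 rows with a ratio of 1.5-fold or more. Joined genes are therefore mostly genes with larger differences. Symbols were updated by accession through RefSeq gene names (GRCm38.p6, used for names and gene order).

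Background was corrected by normexp with an offset of 50, followed by log2 and quantile normalization (R 4.3.3, limma 3.58.1). Probes above the median mean signal were kept (12848). A two-sided moderated test in limma (lmFit, eBayes; no covariate) compared 3MC with DMSO at a Benjamini-Hochberg adjusted p of 0.05. The script was tested on simulated data. The moderated test drew 30.8 prior degrees of freedom from all probes. The members and lists were chosen with earlier results of these data known, and Sncg by this same contrast, so it has no test here. A gene was represented by its joined kept probe of highest mean signal. In list counts and medians of the authors' ratios it was represented by its row of largest size. From each list, the passing genes named with their tests are at most the 4 of largest change. Other members, such as Gdf9 and Zp3, are given as levels or ratios and were chosen after their values were seen. The 5 probes most like Sncg were those of highest Pearson r over the 6 arrays. Of the listed genes 2 are not reported here. The number of arrays limits the precision. Deviations from the group means of same-numbered arrays correlated at -0.079, -0.096 and 0.084, so the replicate numbers were not treated as pairs. Alternatives were other background, scaling and filter settings, the authors' values, a replicate block, each array left out and a wider join tolerance.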

Additional observations from a re-analysis of the deposited data

How the results depend on the processing

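The direction of the Sncg difference was the same in all settings tried. The log2 fold change of the first probe, 2.51, went to 2.16 without background correction, 2.09 in the authors' values and 3.17 with a normexp offset of 16, the last chosen after the data were seen. That of the second probe, 0.75, went to 0.56, 0.52 and 1.28 in the same settings. With 1 array left out in turn the first probe gave 2.48 to 2.54 and the second 0.67 to 0.92, the latter without 3MC replicate 3. With a replicate block they were 2.51 and 0.75, and 3986 probes passed. In that fit 40 genes of the lists passed, as in the fit without the block, and the block changed no call of a gene named above. Over all kept probes 4136 passed (2028 higher, 2108 lower), and 3355 to 3596 with 1 array left out. With each array only centred on its median 1106 passed (344 higher, 762 lower), so that 31.1% of calls were higher in place of 49.0%. Of 41 joined list genes 40 passed, where 85.5% of all 2332 joined genes did, 27 with median centring and 36 to 39 with 1 array left out; the cause was not tested. No alternative could be given for Sncb. Low signal in the DMSO arrays, near that of the median probe, limits how well the size of the Sncg difference is known.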
